A study of Drosophila melanogaster with 90 samples.

Results

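A cold step given to Drosophila pupae kept in closed containers was compared with the same confinement without the cold step, using 6 of the 90 arrays of the series. The 6 arrays were taken by their labels: 1g controls of the magnetic levitator, held outside the magnet with no magnetic field, with the oxygen condition suboptimal, and with the temperature condition suboptimal on 3 arrays (cold) and normal on 3 arrays (constant). Both groups were the Oregon R wild-type strain, began as late larvae, developed for 3.5 days at 24 °C in a container that limited the available oxygen, and were collected as late pupae just before eclosion. The cold group had also been held as early pupae for 3 days at 12 °C before that treatment. The sources differ on the temperature and length of this step, and on the temperature and length of the development that followed in both groups. The arrays within a group carry biological replicate numbers, the number and sex of the pupae behind each array are not given in the labels, and the labels do not say whether cold and constant arrays were reared or hybridised together, so the cold step and the run cannot be told apart.

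During metamorphosis a pulse of the steroid hormone ecdysone drives the deposition of the adult cuticle inside the pupal case, and juvenile hormone and its binding proteins take part in the same timetable. The epidermis secretes chitin, cuticular proteins and apical matrix proteins in sequence and then tans them, while male accessory glands, sense organs and gut reach their adult state in the last part of pupal life. A pupa takes the temperature of its surroundings, so cold slows development, and chilling is also known to induce chaperones and to change sugar metabolism.

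Values were log2 intensities after RMA (robust multi-array average, which corrects background, normalizes arrays by quantiles and summarises the probes of a probe set), so a difference of 1 is a doubling. Array medians of the 6 arrays ran from 5.04 to 5.11. Lower quartiles were 3.55 to 3.58 in the cold group, 3.66 on constant replicate 1 and 3.84 to 3.86 on constant replicates 2 and 3. Correlations over all probe sets were 0.9881 to 0.995 within the cold group, 0.9876 to 0.9906 within the constant group and 0.9574 to 0.976 between the groups. Genes of the adult flight muscle were high in every array, with Act88F (flight muscle actin) at 13.6 to 13.69 in cold and 13.69 to 13.75 in constant pupae, and fln (flightin) at 13.36 to 13.37 and 13.44 to 13.49. Acp36DE and Acp62F, accessory gland genes also chosen as late-pupal markers, were not alike in the groups. Acp36DE read 3.21 to 4.06 in cold and 7.33 to 8.17 in constant pupae, and Acp62F 4.22 to 5.01 and 8.84 to 9.23. The larval glue gene Sgs3 was low throughout, at 3.3 to 3.39 and 3.58 to 4.09, and the pupal cuticle gene Edg78E lay at 4.35 to 5.44 and 3.97 to 4.32.

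The question was which transcripts differed at collection when a cold step had preceded confinement. Whether both groups had reached the same stage at collection was not tested, so stage and a lasting effect of the cold step cannot be told apart. Of 18769 probe sets, 3168 (16.9%) were called at an adjusted p under 0.05 by limma, 1681 higher (8.96%) and 1487 lower (7.92%) in the cold group. With each array centred on its median the split was 1439 higher and 2057 lower, so 41.2% of the calls were higher in place of 53.1%. Over the 11982 genes represented by their brightest probe set, 1336 (11.2%) were higher and 994 (8.3%) lower, and 19.4% were called in all. A change of more than 2-fold was seen in 832 of the called probe sets, 550 higher and 282 lower, and a change of more than 8-fold in 43 that rose and 13 that fell. On 3399 probe sets (18.1%) all cold arrays lay above all constant arrays, and on 4780 (25.5%) all lay below. The count of called probe sets was 1726 without constant replicate 2, 1938 without constant replicate 3, 1889 without cold replicate 1 and 1977 without cold replicate 2.

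Genes of the cuticle-forming epidermis led the rises, and 8 of the 12 genes with the largest rise belonged to the Osiris, Tweedle and Cpr families. The largest rise belonged to Osi15, a member of the Osiris family of insect transmembrane proteins that are made by cuticle-secreting cells. Osi15 read 12.19, 12.02 and 10.71 in the 3 cold arrays and 4.54, 4.87 and 4.98 in the 3 constant arrays. The groups lay far apart, and the difference was 6.84 ± 0.69 (SE, n = 3 against 3, limma adjusted p = 2.49e-07), a 115-fold higher intensity. Osi20, a neighbour in the family, read 10.87, 10.9 and 9.58 against 4.31, 4.01 and 5.26, a rise of 5.92 ± 0.512. In both genes cold replicate 3 was the lowest of the cold arrays and still stood above every constant array. Osi19 rose by 5.26 ± 0.497, Osi18 by 4.90 ± 0.369 and Osi9 by 4.38 ± 0.411. Of 24 Osiris genes measured, 10 rose and none fell, against 11.2% of all genes called higher, and the median over the family was 0.82 against 0.02 over all genes. The remaining called members were Osi6, Osi2, Osi14, Osi24 and Osi8, and 14 members did not pass the test.

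Structural cuticle proteins followed. Twdlbeta, of the Tweedle family of cuticular proteins, read 11.48, 11.07 and 10.68 in cold pupae and 5.44, 5.08 and 5.5 in constant pupae, a rise of 5.74 ± 0.588 (limma adjusted p = 2.95e-07). TwdlE read 8.96, 9.05 and 9.04 against 4.49, 3.39 and 3.62, a rise of 5.18 ± 0.626. The spread of TwdlE lay almost wholly in the constant arrays, where replicate 1 was the highest. Among 81 genes of the Cpr family, whose products carry the chitin-binding Rebers-Riddiford motif, 36 rose and 3 fell, and the median was 0.45. Cpr64Ab read 11.33, 10.68 and 10.42 against 6.5, 6.29 and 6.84 (difference 4.27 ± 0.365), Cpr78E rose by 4.53 ± 0.643, Cpr78Cc by 3.93 ± 0.406 and Cpr30B by 3.55 ± 0.655. Members of the family also moved the other way, with Cpr67Fb at 4.45, 4.76 and 4.9 against 6.43, 6.44 and 7 (-1.92 ± 0.254) and Cpr65Au at -1.58 ± 0.201. In the list of 33 Tweedle and other cuticle genes, 7 rose and 5 fell (36.4% called against 19.4% of all genes). Beside Twdlbeta and TwdlE, the rises were obst-A (2.75 ± 0.297), a chitin-binding organiser of the cuticle, TwdlT (2.03 ± 0.198), TwdlG, obst-B and TwdlW. The 5 falls, all of 0.72 or less on the log2 scale, were TwdlO, TwdlZ, TwdlH, TwdlL and TwdlM. That count of falls was 0 without cold replicate 1, 9 without constant replicate 1 and 1 after a further quantile normalization. CG14147 and CG13049 were among the 12 largest rises as well, at 5.19 ± 0.621 and 4.77 ± 0.405.

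**Figure D1:**
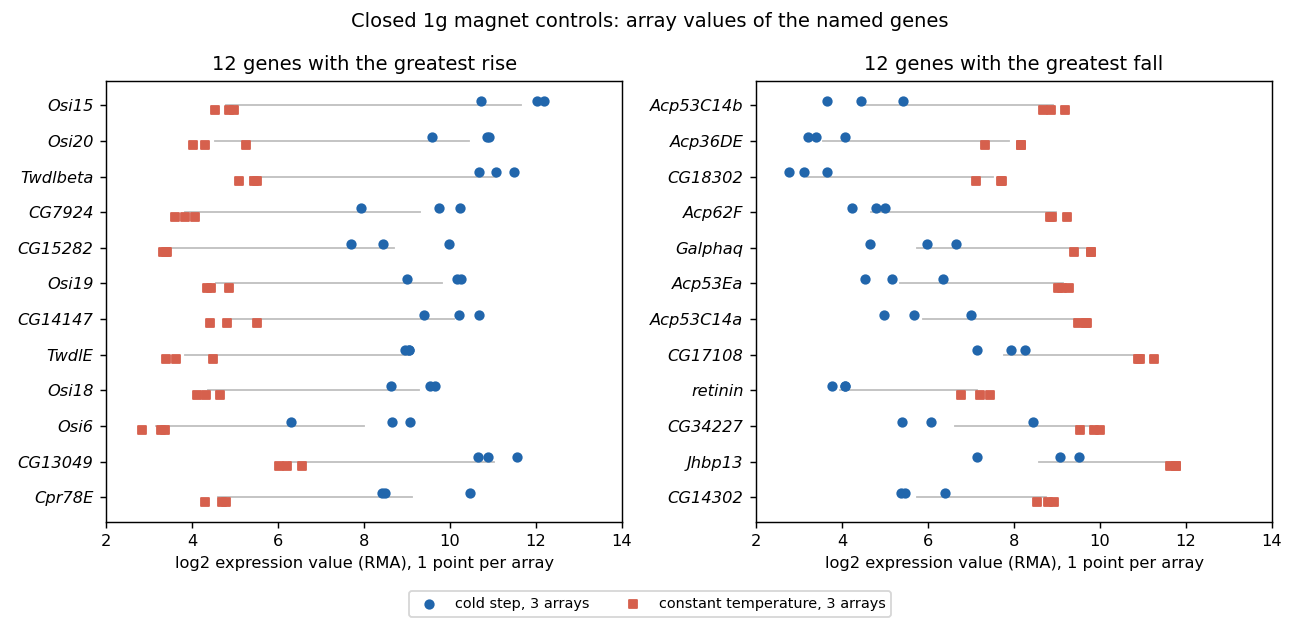
Log2 intensity (x axis) on each of the 3 cold and 3 constant arrays for the 12 genes with the largest rise and the 12 with the largest fall (y axis), each point being 1 array. Cold and constant arrays do not overlap for any of the 24 genes, and the cold arrays of CG7924, CG15282, Osi6, CG34227 and Jhbp13 are spread most widely.

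Enzymes that make and remodel chitin rose with them. Of 29 such genes, 14 rose and 2 fell (55.2% called against 19.4% of all genes), and the median was 0.86 (0.64 when all probe sets of a gene were averaged). The chitin synthase gene kkv read 9.28, 9.18 and 8.97 in cold pupae against 7.44, 6.64 and 7.09, a rise of 2.09 ± 0.226 (limma adjusted p = 5.74e-07). The groups did not overlap, and constant replicate 1 was the nearest to the cold arrays. The chitinase gene Cht10 read 6.82, 5.67 and 8.17 against 3.76, 4.01 and 3.69, a rise of 3.07 ± 0.524. Cht10 varied 5-fold or more among the cold arrays, with replicate 3 at the top. Deacetylase genes that modify chitin rose as well, among them Cda4 (2.00 ± 0.207), verm (1.37 ± 0.156) and serp (1.05 ± 0.198), and so did mmy (1.01 ± 0.126), which makes the sugar nucleotide used for chitin. The 2 falls were Idgf1 (-1.09 ± 0.198), an imaginal disc growth factor related to chitinases, and Cda9 (-0.71). ZP-domain proteins shape the apical extracellular matrix under the cuticle, and 6 of 11 of their genes rose. The rises were tyn (2.43 ± 0.425), neo (2.29 ± 0.373), mey, zye, dy and nompA, and the falls were pio (-0.83 ± 0.136) and qsm. The median of the ZP-domain list was 0.89 with the brightest probe set of each gene and -0.0017 when probe sets were averaged. Of 26 tanning and pigment genes, 7 rose and 4 fell (42.3% called). The melanin gene y (yellow) read 10.67, 10.55 and 10 against 8.88, 7.91 and 8.42, a rise of 2.00 ± 0.31. Its relatives did not all move with it, since yellow-d2 rose by 1.83 ± 0.209 while yellow-f2 fell from 7.25, 7.19 and 7.16 to 5.52, 5.74 and 6.37, a difference of -1.32 ± 0.204. The laccase gene stw (straw), which cross-links cuticle, rose by 1.18 ± 0.21.

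Among 21 genes of the ecdysone response, 12 rose and 1 fell (61.9% called against 19.4% of all genes), with a median of 0.84. ImpE2, a secreted ecdysone-inducible protein, read 7.48, 6.42 and 8.46 in cold pupae against 3.74, 4.42 and 5.09, a rise of 3.04 ± 0.59 (limma adjusted p = 0.000734). ImpL1 and ImpE1 rose by 2.82 ± 0.857 and 2.64 ± 0.389. The transcription factor br (broad) read 7.12, 6.47 and 7.97 against 5.52, 5.45 and 5.42, a rise of 1.72 ± 0.484. Cold replicate 3 was the highest cold array for these 4 genes and cold replicate 2 the lowest. The nuclear receptors Eip78C (1.47 ± 0.176), Hr3 (1.39 ± 0.301), Hr4 (1.32 ± 0.239) and Hr39 (1.02 ± 0.33) rose, as did Eip93F, Eip63E, ImpL2 and the receptor gene EcR (0.77 ± 0.242). MsrA (Eip71CD) fell by 0.98 ± 0.183. The partner of the receptor, usp, and the late-prepupal factor ftz-f1 did not pass the test, at 0.45 (limma adjusted p = 0.163) and -0.37 (limma adjusted p = 0.292). The count of 12 was 7 without cold replicate 3, and also 7 without constant replicate 2 or without constant replicate 3. Of 14 genes for making and clearing ecdysone, Oatp74D, an ecdysone importer, rose by 1.60 ± 0.283 and shd, the enzyme of the last step to the active hormone, fell by 0.59 ± 0.2. In the ecdysone-induced Eig71E cluster, Eig71Ea read 8.62, 6.69 and 10.77 against 4.34, 4.5 and 4.37 (4.29 ± 1.17, limma adjusted p = 0.013) and Eig71Ed read 7.34, 5.66 and 10.63 against 3.85, 4.29 and 4.63 (3.62 ± 1.22, limma adjusted p = 0.0419). The cold arrays of both were far apart, with replicate 3 at the top, and neither was called without that array.

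Takeout-like juvenile hormone binding protein genes moved in both directions. Jhbp4 read 9.2, 8.66 and 8.52 in cold pupae against 5.41, 4.77 and 4.69, a rise of 3.84 ± 0.418. Jhbp13 read 7.14, 9.06 and 9.52 against 11.76, 11.62 and 11.76, a fall of 3.14 ± 0.338 (limma adjusted p = 5.52e-07). The constant arrays of Jhbp13 were tightly grouped while the lowest cold array, replicate 1, lay more than 3-fold below the other 2. Jhbp6 rose by 2.06 ± 0.231 and Jhbp11 fell by 1.96 ± 0.26. Over 21 juvenile hormone genes, 5 rose and 6 fell (52.4% called against 19.4% of all genes).

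**Figure D2:**
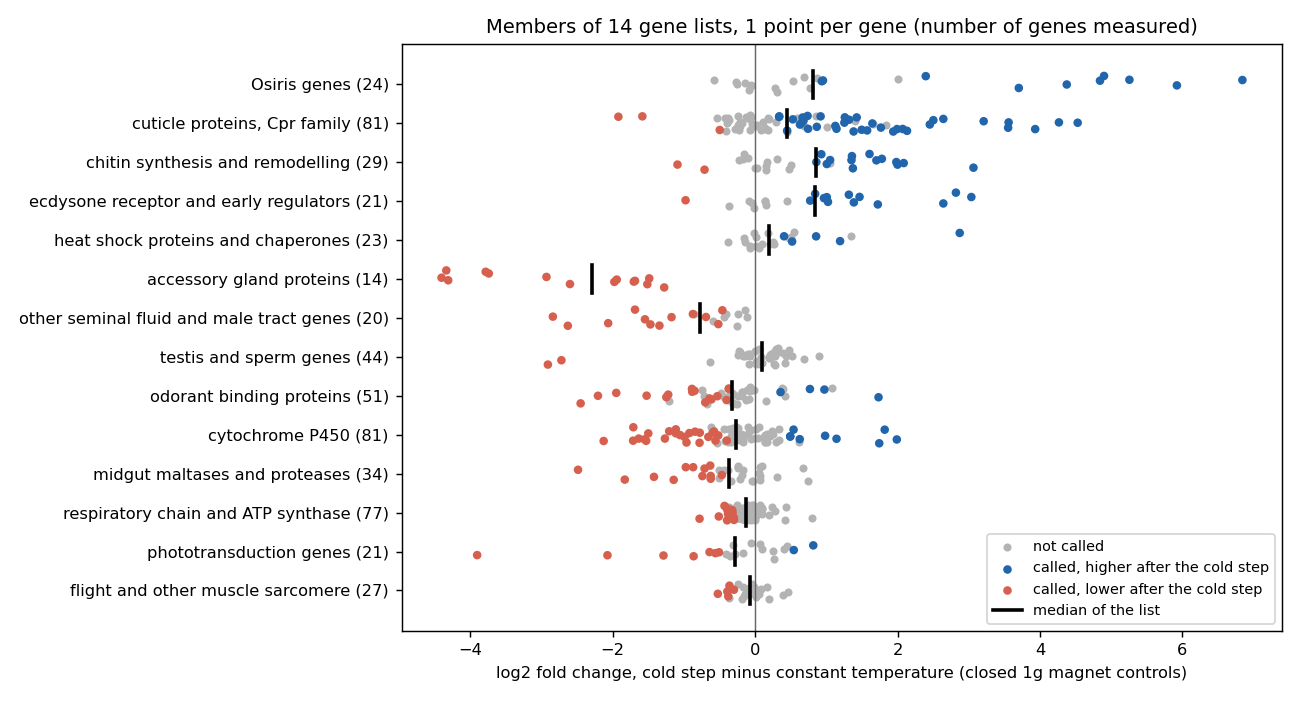
Log2 difference, cold minus constant (x axis), for the members of 14 gene lists (y axis), each point being 1 gene. Genes called by limma are blue (higher) or red (lower), and the others are grey. All 14 accessory gland genes lie below 0, while 10 of 24 Osiris, 36 of 81 Cpr and 12 of 21 ecdysone response genes are called above 0.

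Some of the largest rises were unevenly shared by the cold arrays. CG7924 read 9.74, 7.94 and 10.23 against 3.83, 3.6 and 4.06 (5.47 ± 1.13, limma adjusted p = 0.0014), and CG15282 read 8.44, 7.7 and 9.98 against 3.33, 3.39 and 3.41 (5.33 ± 1.14, limma adjusted p = 0.00186). Osi6 read 9.07, 6.29 and 8.65 against 2.84, 3.36 and 3.28 (4.84 ± 1.58, limma adjusted p = 0.0368). All 3 genes were high in every closed cold array and at the low end in every closed constant array. In the open cold controls 1 array of 3 was high, at 10.59 for CG7924, 8.73 for CG15282 and 9.06 for Osi6 on replicate 2, with the other arrays between 2.95 and 3.76. Osi6 missed the threshold in 5 of the 6 fits that left out 1 array, at adjusted p of 0.0649 to 0.129, the exception being the fit without cold replicate 2. Of the 43 probe sets that rose more than 8-fold, 14 had an SD above 1 among the cold arrays and none among the constant arrays.

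The falls were led by seminal fluid proteins of the male accessory gland. Acp53C14b read 5.42, 3.64 and 4.43 in cold pupae and 8.67, 9.18 and 8.85 in constant pupae, a fall of 4.40 ± 0.459 (limma adjusted p = 3.44e-07) and a 21.2-fold lower intensity. Acp36DE, a protein needed for sperm storage in the mated female, read 4.06, 3.21 and 3.39 against 7.33, 8.17 and 8.17, a fall of 4.34 ± 0.552. Acp62F, a protease inhibitor passed to the female, read 5.01, 4.22 and 4.79 against 8.88, 9.23 and 8.84, a fall of 4.31 ± 0.423. For each of these 3 genes cold replicate 1 was the highest cold array and cold replicate 2 the lowest, and no cold array came near a constant one. All 14 accessory gland genes in the list were lower (against 8.3% of all genes), by 1.28 to 4.40 on the log2 scale, with a median of -2.29. Their mean level per array was 4.11 to 4.77 in cold pupae and 6.94 to 7.18 in constant pupae. The count of 14 was 12 to 13 when any 1 array was left out and 12 after a further quantile normalization. Of 20 other seminal fluid and male tract genes, 12 fell and none rose (median -0.78), including Dup99B (-2.84 ± 0.335), Spn38F (-2.63 ± 0.519) and SP, the sex peptide (-1.34 ± 0.219). In whole pupae, fewer cells of a type and less RNA per cell cannot be told apart.

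Few sperm genes were called beside those of the accessory gland. Of 44 testis and sperm genes, 2 fell and none rose (4.55% called against 19.4% of all genes), and the median was 0.09. The 2 that fell, Mst57Da (-2.91 ± 0.386) and Mst57Dc (-2.72 ± 0.363), carry male-specific transcript names but are known as accessory gland products. Mst84Db, of the sperm tail, read 10.57, 10.59 and 10.43 in cold pupae and 10.73, 10.44 and 10.25 in constant pupae, so the groups overlapped (0.06 ± 0.364, limma adjusted p = 0.924). The mean level of the list was 7.34 to 7.69 in cold and 7.48 to 7.63 in constant arrays. With only the compared groups in the fit, 5 testis genes were higher. Of 21 yolk and eggshell genes, only the eggshell gene Cp18 was called lower (-0.65), which made 4.76% called. Yp1, a yolk protein gene, stayed between 3.38 and 3.99 on all 6 arrays. None of the list was called lower with the replicate number as a block, after a further quantile normalization or in 5 of the 6 leave-out fits, and 3 were without constant replicate 1 or with only the compared groups in the fit. The part that the sex of the pooled pupae played in these values was not tested.

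Genes of the adult eye and of smell were also among the falls. Retinin, a component of the corneal lens, read 3.76, 4.06 and 4.06 in cold pupae against 6.76, 7.45 and 7.2, a fall of 3.18 ± 0.373 (limma adjusted p = 1.49e-06). One probe set of Galphaq, the G protein of the light response, read 4.64, 5.98 and 6.64 against 9.39, 9.78 and 9.8, a fall of 3.90 ± 0.337, while its other 2 probe sets were not called and were both above 0. Of 21 phototransduction genes 7 fell and 2 rose, where 8.3% of all genes were called lower and 11.2% higher. The channel gene trpl read 5.41, 5.53 and 6.07 against 7.83, 7.86 and 7.54 (-2.07 ± 0.253), and Cpn, Arr1 and Arr2, which buffer calcium or arrest rhodopsin, fell by 1.29 ± 0.132, 0.86 ± 0.16 and 0.56 ± 0.125. The related channel gene trp differed in sign, at 0.54 ± 0.148 (limma adjusted p = 0.0134). Of 51 odorant binding and antennal protein genes, 16 fell and 4 rose, with a median of -0.32. In both lists the share that rose was under that of all genes. Obp19d read 6.4, 7.28 and 8.02 against 9.6, 9.72 and 9.73 (-2.45 ± 0.326), Obp56g fell by 2.21 ± 0.262 and Obp69a by 1.95 ± 0.282. The 4 rises were Obp47b (1.73 ± 0.266), Obp99c, Obp83ef and Obp44a. The count of falls was 8 without cold replicate 1, and the number of rises was 2 after a further quantile normalization.

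CG18302 read 2.77, 3.12 and 3.66 against 7.12, 7.69 and 7.72, a fall of 4.33 ± 0.333. CG17108 read 7.13, 7.93 and 8.26 against 10.93, 11.25 and 10.89, a fall of 3.25 ± 0.282. CG34227 read 5.39, 6.06 and 8.44 against 9.87, 9.54 and 10, a fall of 3.17 ± 0.668 (limma adjusted p = 0.00163). The 3 genes have no role that is described here, and for CG34227 cold replicate 3 lay closest to the constant arrays.

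Genes of digestion, of the cytochrome P450 family and of sugar storage gave more falls than rises. Over all genes, 8.3% were called lower and 11.2% higher. Of 34 midgut maltase and protease genes, 12 fell and none rose, with a median of -0.36. Mal-A1, a maltase, read 3.92, 3.9 and 4.71 against 6.69, 6.7 and 6.6, a fall of 2.49 ± 0.328 (limma adjusted p = 7.46e-06). The trypsin gene alphaTry fell by 1.83 ± 0.288 and Mal-A3 by 1.42 ± 0.181. Of 81 cytochrome P450 genes, 24 fell and 9 rose, and the share that rose was near that of all genes. Cyp6a2 and Cyp6g1, both known for insecticide metabolism, fell by 2.13 ± 0.314 and 1.71 ± 0.189, and Cyp310a1 and Cyp4c3 rose by 1.99 ± 0.315 and 1.82 ± 0.238. The glucosidase gene tobi read 4.01, 4.77 and 6.48 against 8.09, 7.69 and 7.95, a fall of 2.82 ± 0.447. Tps1, which makes the blood sugar trehalose, read 7.97, 8.24 and 8.41 against 10.01, 10.21 and 9.93, a fall of 1.84 ± 0.188, and the hexokinase gene Hex-C fell by 1.83 ± 0.178. In the list of 13 sugar storage genes 5 fell (tobi, Tps1, AGBE, Glys and Glyp) and 3 rose (Pepck2, Pepck1 and Treh). Pepck1, of gluconeogenesis, read 12.52, 12.54 and 12.52 against 11.51, 11.73 and 11.59, a rise of 0.92 ± 0.143.

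Small shifts in abundant housekeeping groups depended on the fit. Of 77 genes of the respiratory chain and ATP synthase, 12 fell (15.6% called, under the 19.4% of all genes), led by ND-ASHI (-0.78 ± 0.176) and SdhD (-0.51 ± 0.107). That count was 3 to 7 when any 1 array was left out, 5 with only the compared groups in the fit and 19 after a further quantile normalization. Of 69 mitochondrial ribosomal protein genes 8 fell (11.6%), with 3 to 6 in the leave-out fits and 20 after quantile normalization. Of 40 proteasome genes 8 fell (20%), with 1 without cold replicate 1, 2 without constant replicate 2 and 18 after quantile normalization. Odorant and gustatory receptor genes lay at the low end of the arrays. They were lower for 5 of 57 (8.77%) and 6 of 56 genes (10.7%), beside 8.3% of all genes, and for 1 of each list after quantile normalization. Their medians were -0.26 and -0.24 against 0.02 over all genes, and every odorant receptor gene measured lay below 0 (highest -0.05). Of 27 muscle genes 5 fell (18.5% called, near the 19.4% of all genes), all by 0.52 or less on the log2 scale: Zasp66, Actn, Mlc2, Strn-Mlck and Mp20. The muscle count was 2 without cold replicate 1 and 3 without cold replicate 2, constant replicate 2 or constant replicate 3.

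Few genes known from cold, chaperone and low-oxygen responses were called, at 2 of 7 (28.6%), 5 of 23 (21.7%) and 3 of 13 (23.1%). Given how few genes were called, these shares lay near the 19.4% of all genes. Hsp26, a small heat shock protein, read 10.67, 10.38 and 11.74 in cold pupae against 7.91, 8.65 and 7.61, a rise of 2.87 ± 0.832 (limma adjusted p = 0.0194). It was the only rise among 7 cold response genes and 1 of 5 among 23 chaperone genes, the others being DnaJ-1 (1.19 ± 0.206), Hsf, Hsp110 and l(2)efl. Other chosen cold response genes, among them Hsp22, Hsp23, Hsp83 and Hsp70 genes, were matched to no probe set with exactly 1 symbol and were not counted. The chaperone count was 3 without cold replicate 1, cold replicate 3 or constant replicate 3, and the cold response list had none higher without cold replicate 3. Fst (Frost), a gene known to rise after chilling, read 5.02, 5.03 and 5.43 against 4.13, 4.59 and 5.1, so the groups overlapped (limma adjusted p = 0.222). The gene smp-30, also known from cold work in flies, fell by 1.11 ± 0.184. Of 13 hypoxia and tracheal genes 3 rose: bnl, the branching signal of the tracheae (1.64 ± 0.299), Hph, the prolyl hydroxylase that senses oxygen (0.80 ± 0.232), and sty, an inhibitor of branching (0.35 ± 0.101). Only 1 of them was called without cold replicate 3, constant replicate 2 or constant replicate 3. The hypoxia factor gene sima read 6.56, 6.69 and 7.05 against 6.37, 6.14 and 6.14 (0.55, limma adjusted p = 0.0931). Clock repressor genes vri and cwo rose by 1.76 ± 0.352 and 1.22 ± 0.244, the only calls among 11 clock genes. Among 13 antimicrobial peptide genes Drsl2 (3.71 ± 0.975) and Drsl3 rose (15.4%, under the share of all genes), and 1 was called without cold replicate 3. Among 9 Bomanin and immune induced genes IM33, BomBc3 and BomT3 fell and BomS2 rose, and that rise was called in only 1 of the 6 leave-out fits. Among 34 glutathione S-transferase genes, which also serve detoxification, 7 rose and 4 fell. The rises were 4 without cold replicate 2, constant replicate 2 or constant replicate 3, and the falls were 1 without cold replicate 1 and 2 without cold replicate 2 or constant replicate 2. In that family GstD2 read 7.2, 6.78 and 7.32 against 4.68, 5.23 and 5.1, a rise of 2.10 ± 0.466.

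The same cold step was present in 4 other pairs of magnet groups with their own arrays: open 1g controls, and closed containers inside the magnet at 0g*, 1g* and 2g*, where the asterisk marks the magnetic field. None of the 5 pairs shared an array, although all 30 arrays shared 1 normalization and 1 estimate of the spread. The paper states that external 1g controls were run at the same time as the positions in the magnet. The 5 pairs may therefore share any difference between runs, so their likeness cannot tell the cold step and the run apart. Over 18769 probe sets the log2 differences correlated at r = 0.849 with the open controls, 0.837 at 0g*, 0.878 at 1g* and 0.852 at 2g*. Of the 3168 probe sets called in closed controls, 2108 were called in the same direction in open controls (66.5% of the former, 51.6% of 4089 in the latter, where 21.8% of all probe sets were called) and 1 in the opposite direction. The 1g* pair shared 2395 (75.6% of the closed calls, 53.3% of 4492), the 2g* pair 1207 (38.1%, and 76.9% of 1569) and the 0g* pair 896 (28.3%, and 80.4% of 1114). Those pairs had 23.9%, 8.36% and 5.94% of all probe sets called. Of the 43 rises over 8-fold, 27 were called in all 4 other pairs and 5 in none. The 5 were the probe sets of CG7924, Eig71Ed, Osi6, CG7906 and 1 without a gene name here, and all 5 had cold arrays spread over more than 4-fold. Of the 13 falls over 8-fold, 8 were called in all 4 other pairs and 5 in 3 of them. Over all calls, 19% of the rises and 17.8% of the falls were called in all 4. The accessory gland median was -2.13 in open controls, -1.37 at 0g*, -3.38 at 1g* and -1.06 at 2g*, beside -2.29 in closed controls.

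**Figure D3:**
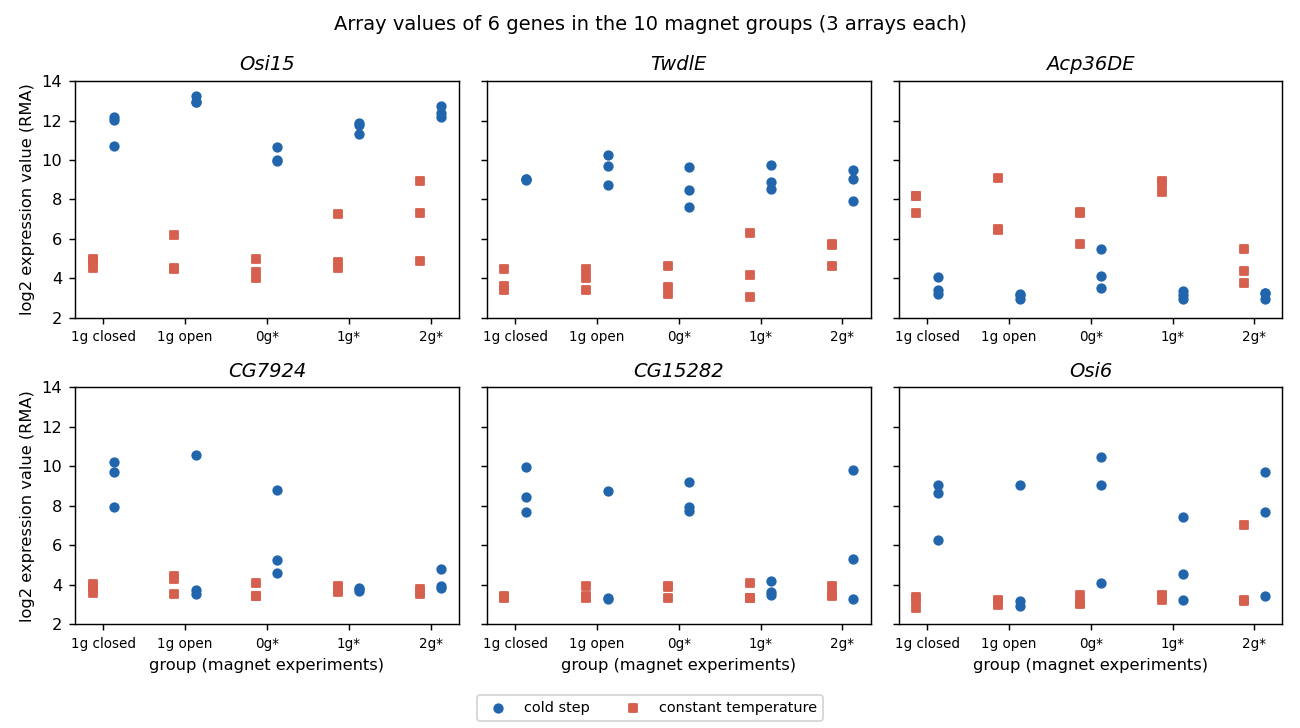
Log2 intensity (y axis) of Osi15, TwdlE, Acp36DE, CG7924, CG15282 and Osi6 in the 10 magnet groups of 3 arrays (x axis), each point being 1 array of a cold or a constant group. Osi15 and TwdlE are higher and Acp36DE lower in the closed cold arrays than in the closed constant arrays, while CG7924, CG15282 and Osi6 are high on 1 of 3 open cold arrays.

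Whether the cold step acted differently in closed than in open containers was tested as the difference between the 2 effects. It was called for 97 probe sets (0.517%) by limma, 74 with the closed effect above the open effect (0.394%) and 23 below it (0.123%). Of the 74, 67 had a log2 difference below 0 in both containers, and the change was larger in open containers for 72. Of the same 74, 54 were called in closed and 73 in open containers. Of the 23, 19 had a log2 difference above 0 in both, and the change was larger in open containers for 22. Of the same 23, 9 were called in closed and 22 in open containers. With only the 4 compared groups in the fit, 3 probe sets were called. The count was 36 without open cold replicate 3, 41 without closed cold replicate 3, 51 without open constant replicate 3, 56 without closed constant replicate 3 and 57 without closed constant replicate 2.

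The largest such difference was at CG14568. In closed containers it read 8.97, 9.52 and 10.36 after cold against 10.71, 10.52 and 10.72, a difference of -1.03. In open containers it read 6.76, 6.95 and 7.01 against 10.65, 10.9 and 10.81, a difference of -3.88. The constant arrays of both containers lay together and the open cold arrays stood below all closed cold arrays, giving a closed-minus-open difference of 2.85 ± 0.343 (limma adjusted p = 0.000139). CG17298 had the same arrangement, at 10.8, 12.26 and 12.61 against 13.36, 13.6 and 13.59 in closed containers and 9.17, 8.81 and 9.31 against 13.53, 13.5 and 13.63 in open ones (2.83 ± 0.371). CG14573 (2.73 ± 0.405), the P450 gene Cyp4e3 (2.55 ± 0.54), Jhbp13 (2.44 ± 0.478) and CG43092 (2.27 ± 0.411) completed the 6 largest. On the other side stood genes with a higher log2 difference in open than in closed containers. For apn (apnoia, of the tracheal lining) the values were 7.54, 7.75 and 6.7 against 4.84, 5.18 and 5.22 in closed containers, and 9.08, 9.2 and 10.19 against 5.39, 4.88 and 5.59 in open ones, a closed-minus-open difference of -1.95 ± 0.367 (limma adjusted p = 0.00952). CG13272 (-2.15 ± 0.433), CG13217 (-2.13 ± 0.42), CG13627 (-2.12 ± 0.455), CG11382 (-2.09 ± 0.437) and CG6908 (-2.08 ± 0.457) differed in the same sense. Of these 12 genes only CG14568 passed the threshold with only the 4 compared groups in the fit.

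**Figure D4:**
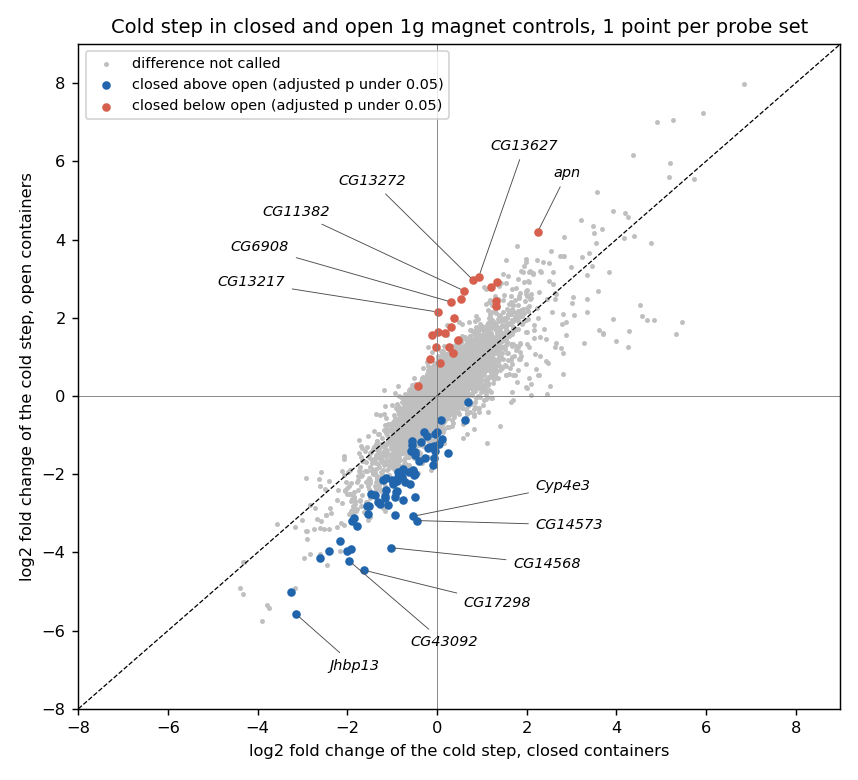
Log2 difference, cold minus constant, in open 1g controls (y axis) against closed 1g controls (x axis), each point being 1 probe set of 18769, with the genes of the 12 largest called differences between containers labelled. Most labelled genes lie further from 0 in open than in closed containers, as 72 of the 74 and 22 of the 23 called probe sets did.

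Members of the gene lists were among the genes whose effect differed by container. Tps1 changed by -1.84 in closed and -3.12 in open containers (difference 1.27 ± 0.265, limma adjusted p = 0.023), Idgf1 by -1.09 and -2.78 (1.69 ± 0.28, limma adjusted p = 0.00335) and Obp56d by -0.53 and -1.90 (1.37 ± 0.248, limma adjusted p = 0.00717). GstE9, GstE10, Os-C, Try29F and Jhbp13 also fell less in closed than in open containers, as did CG17108, which is in no list, and Cpr92A rose less (1.32 against 2.42). The other 7 list members with a called difference were called in open containers and not in closed ones. Of these, Osi17 (0.31 closed, 1.77 open), Cpr47Eg (0.18 and 1.60), Cpr78Cb (0.02 and 1.63) and Cpr65Ea (-0.10 and 1.56) were higher after cold in open containers, and Ccp84Ae (-0.07 and -1.27), Cyp4e3 (-0.53 and -3.08) and GstE6 (-0.26 and -1.58) were lower. None of the 14 accessory gland genes, of the 29 chitin genes other than Idgf1 or of the 21 ecdysone genes had a called difference, against 0.743% of all genes, and a difference that missed the threshold does not show equal effects. Osi17 was the only called member of 24 Osiris genes, and 5 of 81 Cpr genes were called. Opposite signs were rare. For hry the closed effect was 0.69 (called) and the open effect -0.15 (not called), for CG18493 they were -0.42 (called) and 0.26 (not called), and for CG3168 both were called, at 0.62 and -0.61. The other 8 probe sets with opposite signs, of Cpr65Ea, CG10953 (2 probe sets), CG5715, Snmp2, CG31705, CG13678 and CG1544, were called in open containers and not in closed ones.

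The 1g controls of the other facilities gave a cold comparison as well, fitted separately and set beside these values with no test between facilities. In open controls of the random positioning machine (RPM), 2560 probe sets (13.6%) were called, of which 52 had the same direction as in closed magnet controls and 741 the opposite direction (r = -0.46 over all probe sets). In open controls of the large diameter centrifuge (LDC), 3008 (16%) were called, of which 103 shared the direction and 1052 had the opposite one (r = -0.446). The closed LDC controls, whose container was of another type than that of the magnet, rested on 2 arrays against 3 and gave 265 called probe sets (1.41%), 30 in the same and 96 in the opposite direction (r = -0.153). Osi15 changed by 6.84 in closed magnet controls and by -0.66, -5.07 and -6.01 in RPM open, LDC closed and LDC open controls. The accessory gland median was -2.29 beside 1.28, -0.93 and 4.34, so the closed LDC pair had the sign of the magnet and the open pairs did not. None of these accessory gland genes was called in the RPM or the closed LDC pair. Osi15 was not called in the RPM (limma adjusted p = 0.659). Array medians were 4.99 to 5.11 in the magnet, 5.03 to 5.15 in the RPM and 6.37 to 6.53 in the LDC.

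**Figure D5:**
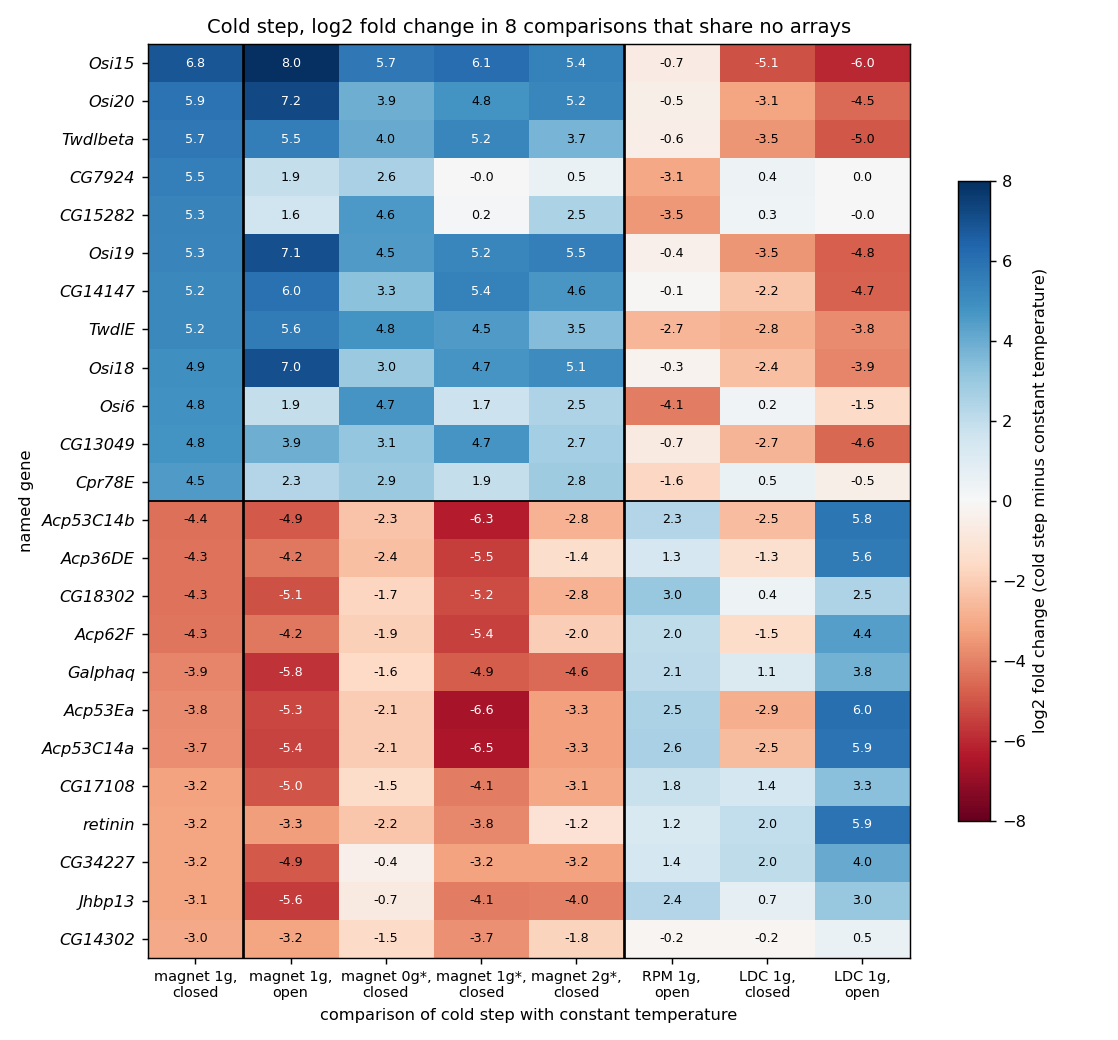
Log2 difference, cold minus constant (colour), for the 12 genes with the largest rise and the 12 with the largest fall in closed magnet controls (rows) over the 8 pairs of groups with and without the cold step (columns). The 5 magnet pairs carry the same colour for most genes, and the RPM and LDC pairs often carry the other, as for Osi15 at 6.84 in closed magnet controls and -6.01 in LDC open controls.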

How the data were processed

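Total RNA of whole pupae was labelled with biotin and hybridised to Affymetrix Drosophila Genome 2 arrays. The deposited values were log2 intensities that the authors had made with RMA, per the labels, and they were used without further scaling. RMA intensities have no true zero, so differences of dim probe sets can be understated, and no detection calls were used here. The lower quartiles of the cold arrays also lay below those of the constant arrays. The part that this shift played in small falls of dim probe sets was not tested. Array medians of the LDC lay above those of the magnet and the RPM, and facilities were fitted apart. Of 18952 probe sets, 183 controls were left out. Exactly 1 gene symbol was given by the platform annotation for 13647 of the 18769 tested probe sets, several for 402 and none for 4720, and symbols were updated by gene identifier for 13544. A gene in a list was represented by its brightest probe set over the 30 magnet arrays. Chosen genes matched to no probe set with exactly 1 symbol were left out of the counts. Among them were Eip74EF and Eip75B of the ecdysone response list, and ninaE, norpA and other rhodopsin genes of the phototransduction list.

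All 30 magnet arrays, in 10 groups of 3, were fitted together with limma 3.58.1 in R 4.3.3, with a mean per group and moderated two-sided tests, and p-values were adjusted by Benjamini and Hochberg over all probe sets. The difference between closed and open containers was a contrast of the same fit. No pair of arrays held identical values. Replicates are called biological in the labels, which do not say how cultures were separated, so p-values measure the spread between these arrays, and 3 arrays a group limit the precision. The fit was tested on simulated data.

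Named genes came from called probe sets with 1 symbol and no overlap between the groups, 12 with the strongest rises and 12 with the strongest falls, from the 6 strongest called differences between containers in each direction, and from called members of the gene lists (or up to 4 others with the smallest p). The comparison, the 44 gene lists and these rules were chosen with earlier results of these data known. Alternatives were the groups in the fit, the replicate number as a block, scaling, a limit on dim probe sets, the variance model, array weights, the methods' threshold and leaving out each array. Leaving out each array and the block for the gene lists were added after seeing the data. No sequence was printed.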

Additional observations from a re-analysis of the deposited data

Results flagged for a closer look

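The effect of the cold step differed between closed and open containers by the test of the difference itself, which called 97 probe sets. The closed-minus-open difference was 2.85 for CG14568, 2.83 for CG17298, 2.73 for CG14573, 2.55 for Cyp4e3, 2.44 for Jhbp13 and 2.27 for CG43092 on the log2 scale. It was -2.15 for CG13272, -2.13 for CG13217, -2.12 for CG13627, -2.09 for CG11382, -2.08 for CG6908 and -1.95 for apn. Between facilities, 741 probe sets were called in opposite directions in closed magnet controls and open RPM controls, and 1052 in closed magnet controls and open LDC controls. These differences between facilities were not tested, and the open RPM and LDC controls also differed from the closed magnet controls in the type of container and in not being closed.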

How the results depend on the processing

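The count for the cold step in closed controls was 3168 (1681 higher, 1487 lower). It stayed within 1.5 times of that with only the compared groups in the fit (3903), after a further quantile normalization (2812), with arrays centred on the median (3496), without dim probe sets (2864) and with a variance trend and robust moderation (3174). It was 1613 (909 and 704) at an unadjusted p under 0.001, the methods' threshold, and 7330 (3050 and 4280) with limma's array weights from its gene-by-gene method. Leaving out 1 array gave 1726 to 4088 calls (899 to 1953 higher, 798 to 2135 lower), with 1726 without constant replicate 2, 1889 without cold replicate 1, 1938 without constant replicate 3 and 1977 without cold replicate 2.

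The count for the difference between closed and open containers was 97 (74 higher, 23 lower). It was 175 (123 and 52) at an unadjusted p under 0.001, 151 (115 and 36) with array weights and 3 (3 and 0) with only the compared groups in the fit, where fewer residual degrees of freedom were left, and 1248 probe sets had an unadjusted p under 0.05 in the fit over all magnet arrays. Leaving out 1 array gave 36 to 137 calls (32 to 112 higher, 3 to 32 lower), with 36 without open cold replicate 3, 41 without closed cold replicate 3 and 51 without open constant replicate 3. The cause was not tested. No named gene changed sign in the alternatives run for it. Of the 24 genes named for the cold step, Osi6 missed the threshold under the variance trend and in 5 of the leave-out fits, and the other 23 stayed past it in the alternatives run for them. Of the 12 genes named for the difference, 11 missed it with only the compared groups.

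Same-numbered cold and constant arrays did not deviate together (r = 0.012, -0.034 and 0.053, beside -0.072 to 0.085 for the other pairs). With 3 arrays a group, these values cannot tell whether same-numbered arrays shared rearing or hybridisation. With the replicate number as a block, 2923 probe sets (1560 and 1363) were called for the cold step and 85 (64 and 21) for the difference.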
